A study of Mus musculus with 6 samples.

Results

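The 29 genes described here act in the synthesis, uptake, intracellular transport and efflux of cholesterol, or regulate these steps. They were listed by name, with earlier results of these data known, and all 29 were found among the 47643 gene IDs in the files. The list holds 19 synthesis enzymes, 4 regulators of the transcription factor SREBP, 3 genes of uptake and transport, and 3 of efflux and LXR, the oxysterol receptor, and does not cover the whole pathway. The RNA came from submandibular salivary gland organoids of the mouse (mSGOs). Such organoids are multicellular structures that grow in Matrigel from dissociated gland cells of adult C57BL/6 mice, 8 to 12 weeks old. Per the paper, all mice were female. All organoids were unirradiated and untreated, and grew in WRY medium, which combines Wnt3a- and R-spondin1-conditioned medium with EGF, FGF2, N2, insulin, dexamethasone and Y27632, an inhibitor of the kinase ROCK. Organoids of 3 mice were collected at day 5 and at day 7 of culture, with 1 library per mouse and day. These are whole cultures, so fewer cells of a type and less RNA per cell cannot be told apart. The labels name no batch for collection or sequencing, so any batch that followed the day cannot be told apart from it.

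Cells build cholesterol from acetyl-CoA. The mevalonate steps yield isoprenoid units, these are joined to squalene, and the ring closed from squalene is then modified to cholesterol. SREBP2, encoded by *Srebf2*, is held in the endoplasmic reticulum by SCAP and the INSIG proteins while sterol is plentiful. When sterol falls, SREBP2 is released and activates the synthesis genes together with NF-Y, a factor that binds CCAAT boxes. When sterol is in excess, oxysterols activate LXR, whose targets include the exporters *Abca1* and *Abcg1* and the ubiquitin ligase *Mylip*, which marks lipoprotein receptors for degradation.

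Libraries held 1918198 to 2837397 counts in genes, and 14024 to 14856 genes had a count. QuantSeq reads come from the 3′ end of a transcript and were not divided by gene length, so levels are given as counts per 1000000 (CPM) and compared between days for 1 gene at a time. Markers of gland epithelium, such as *Epcam* and *Krt14*, summed to 14330 to 18110 CPM at day 5 and 11420 to 15810 CPM at day 7. Of these 7 markers, 1 fell past the threshold given below and 0 rose. Markers of cycling cells fell past this threshold in 8 of 8 genes. Their sum went from 1585 to 1823 CPM at day 5 to 618.3 to 884.1 CPM at day 7. Markers of cornified epithelium rose past it in 6 of 8 genes, with sums of 642.6 to 820.4 CPM and then 1452 to 2797 CPM. Among all genes tested, 4.82% fell and 7.22% rose past the threshold. Summed fibroblast markers stayed under 2 CPM in every library, with *Col1a2*, *Col3a1* and *Lum* at 0 throughout, and those of endothelium ran from 10.45 to 12.37 CPM at day 5 and 13.54 to 25.95 CPM at day 7, with *Cdh5* and *Tek* at 0. Of the 6 adipocyte markers, 5 had no count, and *Fabp4* alone read 160.7 to 209.3 CPM at day 5 and 268.3 to 1806 CPM at day 7. *Fabp4* rose past the same threshold. The part of these cell type markers in the changes described below was not tested.

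Promoters are shown first, since the factors named above act there. The 250 bases before the start of the principal transcript (GRCm39, GENCODE vM39) were read for all 29 genes, and 6 are printed, 5′ to 3′ on the gene's own strand. *Hmgcs1*, *Sqle*, *Idi1* and *Insig1* stand for genes known to respond to SREBP, *Tm7sf2* had the largest fall past the threshold and *Abca1* the largest rise. In *Idi1* and *Tm7sf2* the whole window lies inside the annotated gene, downstream of its outermost start. In *Hmgcs1*, *Sqle* and *Insig1* the annotated gene starts within the window. Capitals mark TCACNCCAC, a form of the sterol regulatory element, and CCAAT, which reads ATTGG on the other strand.
Hmgcs1, chr13:120151732-120151981, plus strand: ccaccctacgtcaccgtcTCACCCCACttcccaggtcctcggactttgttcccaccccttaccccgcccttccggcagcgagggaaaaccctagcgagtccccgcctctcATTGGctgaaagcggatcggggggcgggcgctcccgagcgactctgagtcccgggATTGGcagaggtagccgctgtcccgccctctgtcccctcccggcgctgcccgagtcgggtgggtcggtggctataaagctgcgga
Sqle, chr15:59186632-59186881, plus strand: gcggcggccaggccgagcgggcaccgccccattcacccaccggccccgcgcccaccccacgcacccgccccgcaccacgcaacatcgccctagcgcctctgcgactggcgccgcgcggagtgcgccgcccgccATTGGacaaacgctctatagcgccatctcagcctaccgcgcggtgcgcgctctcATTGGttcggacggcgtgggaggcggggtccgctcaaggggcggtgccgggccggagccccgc
Idi1, chr13:8935669-8935918, plus strand: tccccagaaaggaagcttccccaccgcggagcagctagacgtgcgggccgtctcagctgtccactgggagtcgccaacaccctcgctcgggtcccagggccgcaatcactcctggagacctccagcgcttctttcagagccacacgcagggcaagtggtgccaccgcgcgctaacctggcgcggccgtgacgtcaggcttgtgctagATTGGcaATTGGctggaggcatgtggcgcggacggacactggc
Insig1, chr5:28276077-28276326, plus strand: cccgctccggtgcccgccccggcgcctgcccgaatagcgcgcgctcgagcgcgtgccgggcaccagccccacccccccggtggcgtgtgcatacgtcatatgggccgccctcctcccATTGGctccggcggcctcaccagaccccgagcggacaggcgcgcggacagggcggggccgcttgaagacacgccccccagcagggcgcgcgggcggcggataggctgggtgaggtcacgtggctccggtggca
Tm7sf2, chr19:6117893-6118142, minus strand: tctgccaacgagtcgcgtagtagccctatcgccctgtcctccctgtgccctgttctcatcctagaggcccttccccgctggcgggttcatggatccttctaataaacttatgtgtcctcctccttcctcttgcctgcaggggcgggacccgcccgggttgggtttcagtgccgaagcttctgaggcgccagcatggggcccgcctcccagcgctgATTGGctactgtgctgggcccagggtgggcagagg
Abca1, chr4:53159901-53160150, minus strand: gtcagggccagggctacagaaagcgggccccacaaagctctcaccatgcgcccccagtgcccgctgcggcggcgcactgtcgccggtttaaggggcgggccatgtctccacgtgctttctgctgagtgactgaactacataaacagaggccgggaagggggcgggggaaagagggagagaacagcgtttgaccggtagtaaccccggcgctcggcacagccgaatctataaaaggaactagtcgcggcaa
The *Hmgcs1* window held TCACNCCAC once, starting 232 bases before the transcript start, and 2 copies of CCAAT. This element was present in none of the other 28 windows and in 1.12% of the windows of 21757 protein-coding genes. CCAAT was far more frequent, in 36.5% of all windows, in 14 of the 19 enzymes and in 5 of the other 10 members. *Sqle* and *Idi1* each held 2 copies, *Insig1* and *Tm7sf2* held 1, and *Abca1* held none. For LXR, the exact letters AGGTCA, any 4 bases and AGGTCA again were searched and were in no window of any gene, so this search told no genes apart. LXR elements often depart from these letters, and imperfect forms were not searched, in the *Abca1* window or any other. All motifs were searched on both strands and did not overlap each other in the windows shown. A match describes letters and is not a bound site, and a missing match says nothing of the factor.

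Between day 5 and day 7, the synthesis enzymes that passed the test were lower and the regulators, transport and efflux genes that passed were higher. *Lss*, *Tm7sf2* and *Ebp* fell, and *Insig2*, *Mylip* and *Abca1* rose. A gene counted as changed when its adjusted p was under 0.05 and its log2 fold change lay beyond 0.6 in either direction. All 29 members passed the filter on low counts. Of all 15792 genes tested, 12.0% were past this threshold, 7.22% higher and 4.82% lower, against 6 of 29 members, 3 in each direction. The values of the 2 days did not overlap in 14 members, 5 higher and 9 lower at day 7, where *Abcg1*, among the higher, rests on 1 count in the closest library of each day. Among all genes this was so for 30.9%, 15.4% higher and 15.5% lower. The median log2 fold change was -0.29 over the 29 members and -0.01 over all genes. No test of the list as a whole was made, and since the list was drawn up with earlier results known, these shares are descriptions.

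**Figure D1:**
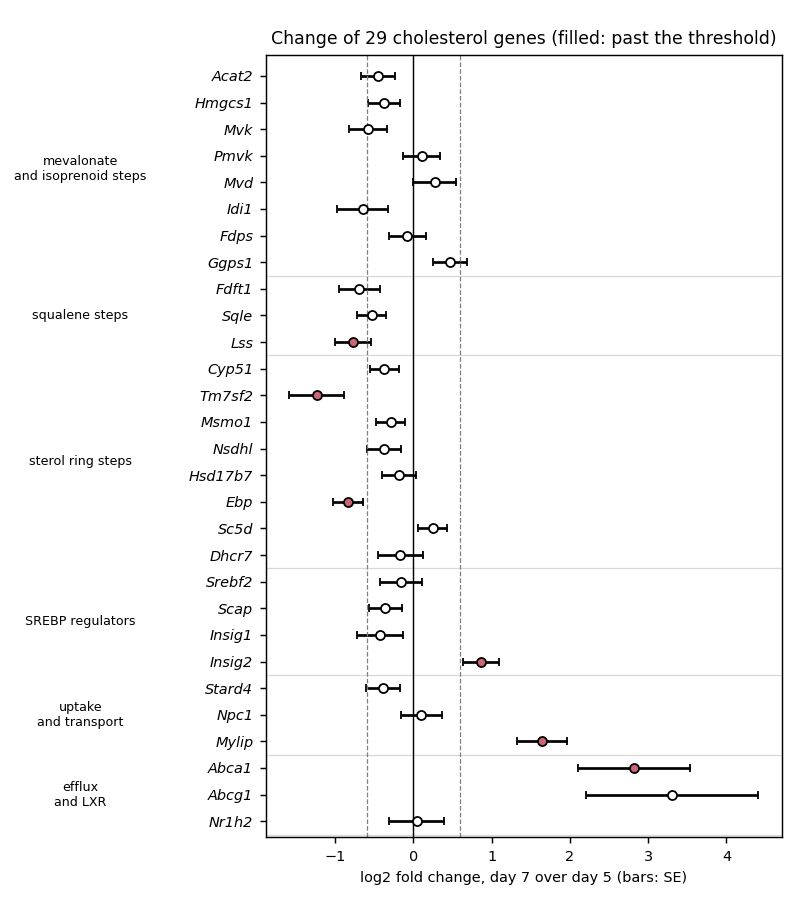
Log2 fold change of each of the 29 genes at day 7 over day 5 (x axis), by role (y axis), with bars of 1 standard error from the fit to 3 libraries per day. Filled points, *Lss*, *Tm7sf2* and *Ebp* to the left and *Insig2*, *Mylip* and *Abca1* to the right, are past the threshold, and dashed lines stand at -0.6 and 0.6.

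The 19 synthesis enzymes summed to 2898 ± 116.5 CPM at day 5 and 2347 ± 299.5 CPM at day 7 (SD, n = 3), and the days did not overlap. The sum was lower at day 7 in each of the 3 mice, with 2663, 2068 and 2310.0 CPM in mice 1, 2 and 3 against 2851, 3031 and 2812 CPM at day 5. The most abundant enzymes weigh most in this sum. Of the 19 enzymes, 3 fell, 0 rose and 16 did not pass the test. Estimates were below 0 for 15 of them, with a median log2 fold change of -0.37. In 9 enzymes every day 7 library lay below every day 5 library, and in *Ggps1* alone every one lay above. Over all 15792 genes tested, 7959 estimates were below 0, and 4.82% of genes fell past the threshold. Every day 7 library lay below every day 5 library in 15.5% of all genes and above in 15.4%.

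The mevalonate and isoprenoid steps held no gene past the threshold among 8. *Acat2* makes acetoacetyl-CoA at the entry of the pathway. It read 146.0, 175.7 and 178.0 CPM in mice 1, 2 and 3 at day 5 and 115.5, 90.6 and 160.1 CPM at day 7. *Hmgcs1*, which condenses this product to HMG-CoA, read 713.2, 833.0 and 685.6 CPM at day 5 and 744.1, 510.7 and 469.5 CPM at day 7. In *Hmgcs1* mouse 1 stayed at its day 5 level while the others were lower, so the days overlapped. The log2 fold change was -0.37 ± 0.21 (SE, adjusted p = 0.265) with a 95% interval of -0.80 to 0.06. Without mouse 1 at day 7 it was -0.60 with an adjusted p of 0.028, which passed the threshold. *Acat2* gave -0.45 ± 0.22 (SE, adjusted p = 0.193) and passed only without mouse 3 at day 7, at -0.70 with an adjusted p of 0.00666.

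Further along, after a step from HMG-CoA to mevalonate that the list does not cover, come the kinases *Mvk* and *Pmvk* and the decarboxylase *Mvd*. These turn mevalonate into isopentenyl diphosphate. *Mvk* read 33.0, 35.7 and 31.0 CPM at day 5 and 23.4, 18.1 and 25.5 CPM at day 7, all lower at day 7. Its log2 fold change of -0.58 ± 0.24 (SE, adjusted p = 0.13) passed only without mouse 3 at day 7, at -0.68 with an adjusted p of 0.033. *Mvd* was spread widely at day 7, with 52.9, 43.4 and 106.2 CPM against 47.9, 56.2 and 62.3 CPM at day 5. *Pmvk* had the same shape, with 42.6, 35.8 and 63.6 CPM at day 7 within or around a day 5 range of 40.0 to 46.2 CPM. In both genes mouse 3 was the highest day 7 library and the estimates, 0.27 for *Mvd* and 0.10 for *Pmvk*, turned to -0.21 and -0.16 without it.

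*Idi1* interconverts the 2 isoprenoid units. It was low, at 9.37 to 12.4 CPM on day 5 and 6.25 to 8.44 CPM on day 7, with no overlap and a log2 fold change of -0.65 ± 0.33 (SE, adjusted p = 0.219). *Fdps*, which joins the units to farnesyl diphosphate, read 62.3 to 79.6 CPM at day 5 and 49.0 to 96.0 CPM at day 7, with a log2 fold change of -0.08 (adjusted p = 0.88). Its estimate turned to 0.13 without mouse 2 at day 7. The last 500 bases of *Fdps* match copies such as *Gm3571* at 99.1% identity over 445 bases, so its count is uncertain. *Ggps1* leads out of sterol synthesis to geranylgeranyl diphosphate, which anchors proteins in membranes. It read 52.8, 43.2 and 50.1 CPM at day 5 and 53.3, 67.4 and 81.8 CPM at day 7, with a log2 fold change of 0.47 ± 0.22 (SE, adjusted p = 0.183).

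All 3 genes of the squalene steps lay lower at day 7 with no overlap between days. No other role had all its members apart in this way, and among all genes tested 15.5% lay lower without overlap. The last exon of each of the 3 overlaps a gene on the opposite strand (*Ctsb* for *Fdft1*, *Washc5* for *Sqle*, *Gm15343* for *Lss*), and since the strand setting is not given, their counts could include reads of that gene. Their sum was 324.3 to 350.0 CPM at day 5 and 194.3 to 263.9 CPM at day 7. The sums of the mevalonate and isoprenoid steps and of the sterol ring steps were also lower at day 7 with no overlap. *Lss* closes the ring to lanosterol. It read 88.7, 79.8 and 87.2 CPM at day 5 and 64.4, 52.1 and 32.8 CPM at day 7. All day 7 libraries were lower and mouse 3 was the lowest, for a log2 fold change of -0.77 ± 0.23 (SE, adjusted p = 0.0364). *Lss* lost this call when any 1 library but mouse 1 at day 7 was left out. Adjusted p was then 0.146, 0.118 and 0.148 without mice 1, 2 and 3 at day 5 and 0.0979 without mouse 2 at day 7. Without mouse 3 at day 7 the adjusted p was 0.0251 but the log2 fold change was -0.55, under the required size.

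*Sqle*, an oxygenase that limits the rate of the sterol steps after squalene, read 218.6, 240.0 and 209.3 CPM at day 5 and 176.8, 137.8 and 145.9 CPM at day 7. It was lower in all 3 mice, but its log2 fold change of -0.54 ± 0.19 (SE, adjusted p = 0.0693) met neither limit. It passed when libraries were scaled by their totals only, at -0.63 with an adjusted p of 0.0335, and without mouse 1 at day 7, at -0.65 with an adjusted p of 0.0215. *Fdft1* makes squalene from farnesyl diphosphate and read 27.2, 30.1 and 27.7 CPM at day 5 and 22.6, 14.2 and 15.7 CPM at day 7. Its log2 fold change was -0.69 ± 0.26 (SE, adjusted p = 0.0935) and passed only without mouse 1 at day 7, at -0.92 with an adjusted p of 0.026.

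**Figure D2:**
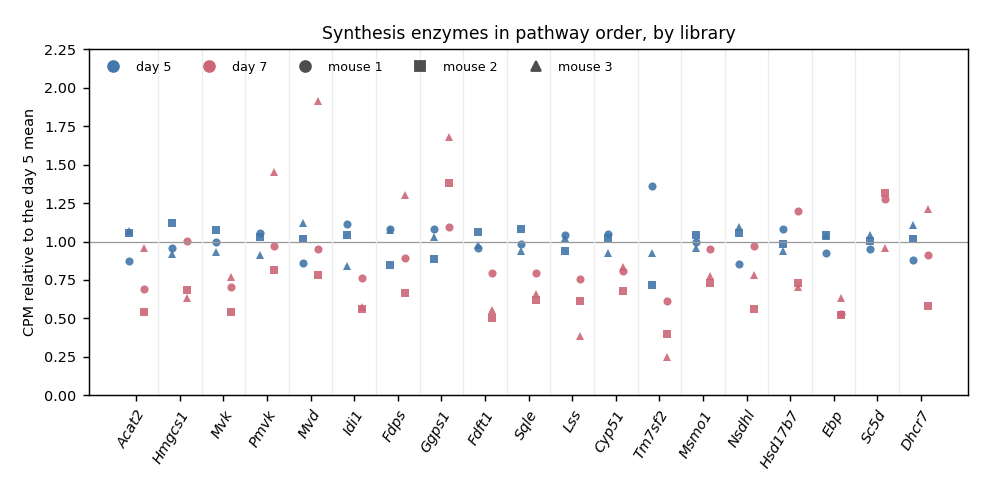
CPM of each of the 19 synthesis enzymes in every library, divided by the gene's day 5 mean (y axis), with the enzymes in pathway order (x axis), blue for day 5, red for day 7 and 1 symbol per mouse. The 3 genes of the squalene steps, *Fdft1*, *Sqle* and *Lss*, sit wholly below their day 5 values, and the triangle of mouse 3 is the highest day 7 point for *Pmvk*, *Mvd*, *Fdps* and *Ggps1*.

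Of the 8 sterol ring enzymes, 2 fell, 0 rose and 7 had estimates below 0. The share of all genes tested that fell past the threshold was 4.82%. *Ebp* moves a double bond in the sterol ring. It read 101.1, 113.5 and 113.1 CPM at day 5 and 57.9, 56.9 and 69.0 CPM at day 7. The libraries of each day were close together and the days were far apart, for a log2 fold change of -0.84 ± 0.19 (SE, adjusted p = 0.00778), or 0.56 of the day 5 level. The adjusted p of *Ebp* was 0.065 without mouse 2 and 0.0656 without mouse 3 at day 5. *Tm7sf2* reduces the double bond left by *Cyp51* and read 23.9, 12.6 and 16.2 CPM at day 5 and 10.7, 6.94 and 4.41 CPM at day 7. Its days did not overlap, but mouse 2 at day 5 lay close to mouse 1 at day 7. The log2 fold change of *Tm7sf2* was -1.23 ± 0.35 (SE, adjusted p = 0.0271). The adjusted p was 0.198, 0.0522 and 0.088 without mice 1, 2 and 3 at day 5 and 0.117 without mouse 2 at day 7, with estimates from -0.95 to -1.60 over all 6 omissions.

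The other 6 ring enzymes did not pass. *Cyp51*, which removes the first methyl group of lanosterol, read 453.3, 441.8 and 399.6 CPM at day 5 and 348.3, 293.4 and 359.8 CPM at day 7. Its log2 fold change was -0.37 ± 0.18 (SE, adjusted p = 0.208) with a 95% interval of -0.75 to 0.01. *Msmo1*, which oxidises the methyl groups that remain, read 376.9 to 409.7 CPM at day 5 and 286.4 to 374.0 CPM at day 7, also with no overlap. Both genes thus lay lower in every day 7 library, with estimates nearer 0 than that of *Ebp*. *Nsdhl* and *Hsd17b7* act in the same demethylation. They gave log2 fold changes of -0.38 (adjusted p = 0.288) and -0.19 (adjusted p = 0.639), and in both the days overlapped. *Sc5d*, which introduces the C5 double bond, was higher at day 7 in mice 1 and 2, at 227.1 and 234.7 CPM against 169.9 to 185.2 CPM over day 5, but not in mouse 3, at 170.4 CPM. *Dhcr7*, the last step to cholesterol, read 17.7 to 22.3 CPM at day 5 and 11.8 to 24.5 CPM at day 7 and gave -0.17 (adjusted p = 0.779), with the sign turning to 0.077 without mouse 2 at day 7.

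Of the 4 regulators of SREBP, 1 rose, 0 fell and 3 did not pass the test. *Srebf2*, the factor itself, read 186.9, 186.3 and 217.6 CPM at day 5 and 270.4, 158.3 and 98.9 CPM at day 7. Day 7 thus spanned both sides of day 5, with mouse 1 above and mouse 3 at the bottom. The log2 fold change was -0.16 with a 95% interval of -0.72 to 0.39, and 0.12 without mouse 3 at day 7. *Scap*, which escorts SREBP to the Golgi, was lower in each mouse, at 71.0, 82.9 and 85.0 CPM against 66.0, 71.5 and 47.5 CPM, but overlapped between days and gave -0.36 (adjusted p = 0.289). *Insig1*, a retention protein and itself an SREBP target, read 13.6 to 20.1 CPM at day 5 and 10.1 to 15.3 CPM at day 7, for -0.43 (adjusted p = 0.375).

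*Insig2*, the other retention protein, rose. It read 51.6, 41.2 and 45.0 CPM at day 5 and 80.6, 108.0 and 60.7 CPM at day 7, higher in all 3 mice and without overlap. Its log2 fold change was 0.86 ± 0.23 (SE, adjusted p = 0.0191), or 1.81 times the day 5 level. The adjusted p of *Insig2* was 0.0625, 0.134 and 0.11 without mice 1, 2 and 3 at day 5 and 0.126 without mouse 2 at day 7. The estimates then ran from 0.62 to 0.95. The difference between *Insig2* and *Insig1* was not tested.

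Among uptake and transport genes, *Mylip* rose with the smallest adjusted p of all members. It read 5.78, 5.02 and 4.68 CPM at day 5 and 16.9, 17.7 and 13.7 CPM at day 7. The lowest day 7 library was above 2 times the highest day 5 library, and the log2 fold change was 1.64 ± 0.32 (SE, adjusted p = 0.00218), or 3.12 times the day 5 level. *Mylip* was past the threshold in all 11 alternatives over all libraries and with each of the 6 libraries left out, with estimates of 1.57 to 1.74 in the latter. *Stard4*, which carries cholesterol through the cytosol and is an SREBP target, read 92.0, 93.4 and 78.9 CPM at day 5 and 89.0, 55.9 and 56.8 CPM at day 7. Its log2 fold change of -0.39 ± 0.22 (SE, adjusted p = 0.277) passed only without mouse 1 at day 7, at -0.64 with an adjusted p of 0.0378. *Npc1*, which releases cholesterol from lysosomes, read 26.7 to 31.8 CPM at day 5 and 20.6 to 40.3 CPM at day 7, with an estimate of 0.10 that turned to -0.13 without mouse 1 at day 7.

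**Figure D3:**
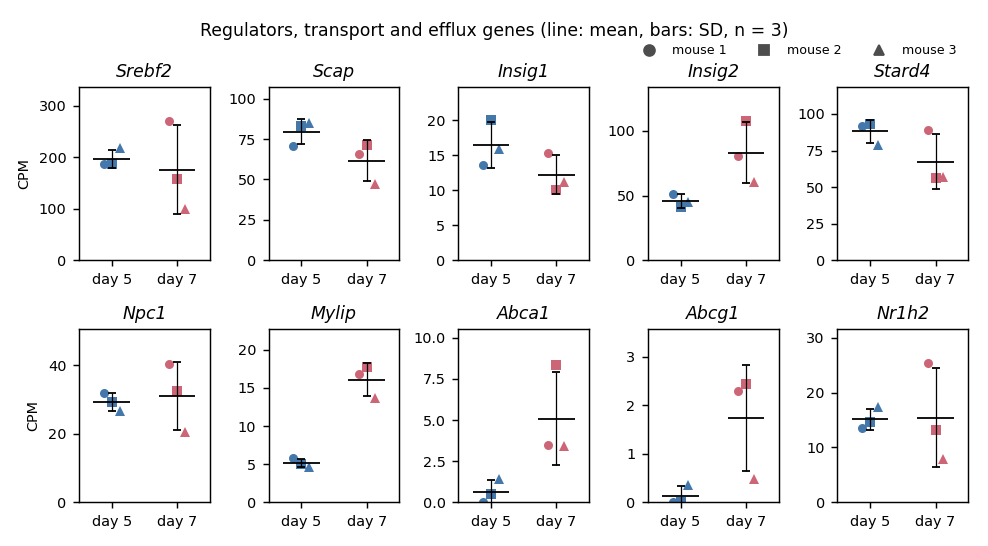
CPM of the 10 regulators, transport and efflux genes in every library (y axis, from 0, with its own range in each panel) at day 5 and day 7 (x axis), with the mean as a line, the SD as bars (n = 3) and 1 symbol per mouse. The points of *Mylip*, *Insig2* and *Abca1* do not overlap between the days, those of *Abcg1* are parted by 1 count at different depths, while *Srebf2*, *Npc1* and *Nr1h2* fan out at day 7 with mouse 1 at the top and mouse 3 at the bottom.

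The exporters were scarce. *Abca1*, which loads cholesterol onto apolipoprotein A-I, had 5 counts over the day 5 libraries and 40 over the day 7 libraries. It read 0, 0.502 and 1.44 CPM at day 5 and 3.45, 8.33 and 3.43 CPM at day 7. A count of 0 in a library allows up to 1.06 to 1.56 CPM of the unscaled library total. Every day 7 library lay above every day 5 library, mouse 2 by far the highest. The fitted log2 fold change was 2.82 ± 0.72 (SE, adjusted p = 0.0138), and the ratio of summed counts per depth was 7.64 with a 95% counting interval of 3.02 to 24.8, which covers counting error only. This ratio was 4.95 without mouse 2 at day 7, 5.06 without mouse 1 at day 5 and 23.5 without mouse 3 at day 5. The adjusted p of *Abca1* was 0.0838 and 0.0831 without mice 1 and 2 at day 5 and 0.131 without mouse 2 at day 7. With filters that ask for more counts the gene was not tested.

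*Abcg1*, which exports cholesterol to lipoprotein particles, had 1 count at day 5 and 14 at day 7. It read 0, 0 and 0.360 CPM at day 5 and 2.30, 2.43 and 0.490 CPM at day 7, so that mouse 3 rested on 1 count on both days. A library at 0 could hold more than mouse 3 read at day 7, so the days are not shown to be apart. The ratio of summed counts per depth was 13.4 with a 95% counting interval of 2.03 to 565. It was 8.86 without mouse 1 at day 5, and without mouse 3 at day 5 no count was left at that day and the fitted log2 fold change went to 5.16. *Abcg1* did not pass the threshold (log2 fold change 3.31 ± 1.10 SE, adjusted p = 0.0577). It passed with no filter on low counts (adjusted p = 0.0372), with limma voom (adjusted p = 0.0479) and without mouse 3 at day 7 (adjusted p = 0.0178). Its adjusted p was 0.156 with DESeq2, 0.137 with the mouse as a block, 0.14 with glmTreat and 0.0898 to 0.19 with each of the other 5 libraries left out. *Nr1h2*, the receptor LXR beta, read 13.6, 14.6 and 17.3 CPM at day 5 and 25.3, 13.2 and 7.83 CPM at day 7, and its log2 fold change of 0.04 had a 95% interval of -0.69 to 0.77. Its sign turned with the scaling, the tool, the block for mouse and the library left out.

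Macrophages carry much *Abca1* and *Abcg1*, so their markers stand beside these genes. The 10 macrophage markers summed to 0.360 to 1.65 CPM at day 5 and 3.84 to 6.85 CPM at day 7. Of these, 7 had no count in any library, among them *Adgre1*, *Csf1r* and *C1qa*. The other 3 were *Ptprc*, *Cd68* and *Aif1*. Only 1 of them had counts in more than 1 library and so passed the filter on low counts. That gene was past the threshold, higher at day 7. The part of this signal in the 2 transporters was not tested.

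The day 7 libraries differed more among themselves than the day 5 libraries. The coefficient of variation over 3 libraries had a median of 10.2% at day 5 and 28.0% at day 7 across the members. The SD of log2(CPM + 1) was wider at day 7 in 28 of 29 members, against 68.4% of all genes tested. Among the 8626 genes whose mean count reached 20 this share was 79.8%, and all 27 members at that level were wider. The place of mouse 3 at day 7 varied by role. It was the highest day 7 library in 6 of the 8 mevalonate and isoprenoid genes, while over all genes it was highest in 38.7%. It was highest in 3 and lowest in 3 of the 8 sterol ring enzymes, and highest in 0 and lowest in 1 of the 3 squalene genes. It was the lowest in 8 of the 10 regulators, transport and efflux genes, while it was lowest in 34.1% of all genes and 58.5% of the other pathway genes tested. Among genes whose mean count reached 20 it was highest in 42.3% and lowest in 39.3%. These are descriptions of 1 library and were not tested.

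**Figure D4:**
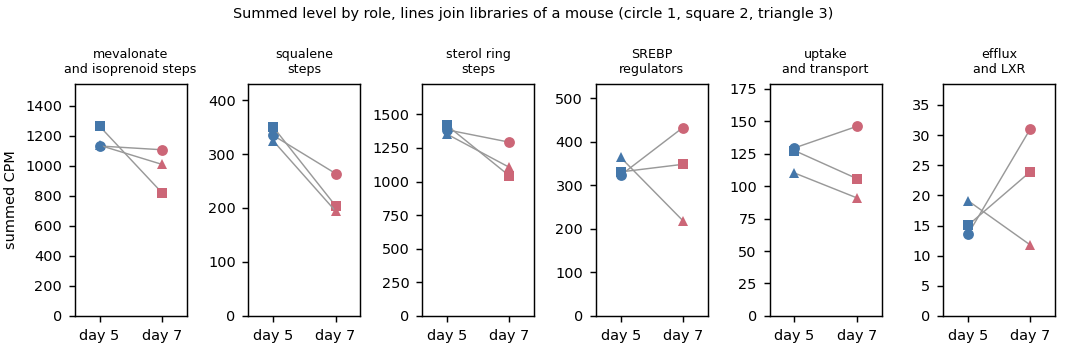
Summed CPM of the members of each role (y axis, from 0, with its own range in each panel) at day 5 and day 7 (x axis), with lines that join the 2 libraries of a mouse. Lines of all 3 mice go down for the squalene steps, from 324.3 to 350.0 CPM to 194.3 to 263.9 CPM. They also go down for the mevalonate and isoprenoid steps, from 1131 to 1263 CPM to 821.0 to 1106 CPM. The same holds for the sterol ring steps, from 1353 to 1418 CPM to 1043 to 1293 CPM. For the SREBP regulators mouse 1 goes up and mouse 3 down.

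Genes with and without CCAAT in the promoter window were set side by side, as a description. The 19 members with CCAAT had a median log2 fold change of -0.38, and 15 were below 0. The 10 without had a median of 0.07, and 4 were below 0. Enzymes make up 14 of the 19, so the motif and the role overlap. *Mylip*, with 3 copies, and *Abcg1*, with 1, both had positive estimates, and *Cyp51*, with none, had a negative one. *Hmgcs1*, which held both elements, had the same estimate as *Cyp51*, -0.37.

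Beyond the 29 genes, 59 neighbours in sterol and isoprenoid metabolism were listed, of which 53 were tested. Of these, 4 rose, 2 fell and 47 did not pass, with a median log2 fold change of -0.03. These 6 calls among 53 stand beside a share of 12.0% for the whole data set, so the count does not set the neighbours apart. The days did not overlap in 15 of the 53, beside 30.9% for the whole data set. The smaller lists below were not tested against these shares. The other sterol transport genes held 3 rises and 0 falls among 16 tested. *Npc2*, the partner of *Npc1* in lysosomes, rose by a log2 fold change of 1.31 (adjusted p = 0.000364), and *Osbpl9* and *Osbpl8*, lipid carriers at membrane contacts, by 0.68 (adjusted p = 0.0251) and 0.77 (adjusted p = 0.0443). The isoprenoid branches held 1 rise and 1 fall among 14. *Fntb*, a subunit of the farnesyltransferase of proteins, rose by 0.85 (adjusted p = 0.0283), and *Pdss1*, which makes the side chain of ubiquinone, gave -1.92 (adjusted p = 0.00119). *Acly*, which supplies cytosolic acetyl-CoA, fell with a log2 fold change of -0.72 (adjusted p = 0.0342), the only change among 5 genes of acetyl-CoA supply and the ketone branch. None of the 11 other SREBP and LXR regulators and none of the 7 genes of sterol esters, oxysterols and sulfate passed the edgeR test. At an unadjusted p under 0.05 these lists held 0 and 3 genes, against 4079 of the 15792 genes tested.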

How the data were processed

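The authors deposited whole-number read counts per Ensembl gene ID from Lexogen QuantSeq 3′ libraries, not normalised. Per the labels and the methods, reads were aligned to GRCm39, and the aligner, annotation release and strand setting are not given in the sources used here. The 5 closing entries that name no gene (13.7% to 14.4% of reads at day 5, 9.12% to 9.74% at day 7) were left out. IDs were named with GENCODE vM39, which matched 43465 of 47643 (91.2%).

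A gene was tested if 2 or more libraries held at least 1 count of it. Days were compared in edgeR 4.0.16 (R 4.3.3) by its quasi-likelihood F test, two-sided, with TMM and day as the only term, with Benjamini-Hochberg adjustment over all genes tested. The scripts were tested on simulated data. CPM are per 1000000 TMM-scaled counts. A count of 0 allows up to 3 counts, 1.06 to 1.56 CPM of the library totals before TMM scaling. Reads carried no molecular identifiers, so intervals of counts cover counting error only. No libraries of a day agreed within sampling noise (smallest chi-square per degree of freedom 1.99). P-values rest on the spread between libraries of a day, with variance estimates that also draw on other genes. With 1 library per mouse and day, spread from mouse, culture and library preparation cannot be told apart.

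Per the titles and the design text, each mouse gave 1 library per day. Deviations from the day means correlated at 0.14, -0.10 and 0.16 within mice 1, 2 and 3 over 8176 genes with at least 10 CPM. Between different mice the correlations ran from -0.18 to 0.12, so the pairing was barely visible in these correlations. Deviations from a day mean are tied to each other within the day, so this check is weak. With the mouse as a block, 2340 genes were past the threshold, against 1901 without it.

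All 29 members are named, and of the other pathway lists up to 3 genes past the threshold with the smallest p. Members, lists and motifs were chosen with earlier results of these data known. The last 500 bases of each member were compared with all other transcripts by blastn 2.17.0, asking for at least 95% identity over 75 bases. Only *Fdps* matched. The last exons of 8 members, *Acat2*, *Hmgcs1*, *Fdft1*, *Sqle*, *Lss*, *Cyp51*, *Scap* and *Npc1*, overlap a gene on the other strand, and without the strand setting reads of the pair cannot be told apart. The 11 alternatives over all libraries changed the scaling, the filter, the tool (DESeq2 1.42.0, limma voom 3.58.1, robust fit, glmTreat) or added the mouse as a block, and 6 left out 1 library each.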

Additional observations from a re-analysis of the deposited data

How the results depend on the processing

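Over all libraries, the count of members past the threshold, 6, was 5 to 7 under every alternative except glmTreat, which tests against the required size itself and called 2 (*Mylip*, *Abca1*). For all genes glmTreat called 622 against 1901. Leaving out 1 library gave 1 to 10 members and 797 to 2576 genes. Members numbered 2, 1 and 2 without mice 1, 2 and 3 at day 5 and 10, 2 and 8 without mice 1, 2 and 3 at day 7. All genes numbered 892, 797 and 890, and 2472, 1045 and 2576, in the same order. With 3 libraries against 2, fewer samples carry each of these tests. Scaling by library totals moved the split of all genes from 1140 higher and 761 lower to 950 and 1008 and their median log2 fold change from -0.01 to -0.10, and the 6 members kept their calls.

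With the mouse as a replicate block, 2340 genes and 6 members were past the threshold, and the block changed no call of a member. No called estimate changed sign. Among estimates not past the threshold, *Nr1h2* turned from 0.04 to -0.058 with library totals, -0.10 with limma voom and -0.057 with the block. With 1 library left out, estimates spanned 0 for *Nr1h2* (-0.50 to 0.33), *Pmvk* (-0.16 to 0.27), *Mvd* (-0.21 to 0.51), *Fdps* (-0.37 to 0.13), *Dhcr7* (-0.43 to 0.077), *Srebf2* (-0.61 to 0.12) and *Npc1* (-0.13 to 0.31). Depth limits *Abca1* and *Abcg1*, with 5 and 1 counts at day 5.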
